A study of Mus musculus with 34 samples.

Results

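The 6 genes described here are grouped as transporters, channels and related proteins of the peroxisomal membrane, although ABCD4 acts in lysosomes and the substrate of PXMP4 is not established. They were followed across mouse liver samples that differ in PPARA genotype and in fenofibrate treatment. The members were Abcd2, Abcd3, Abcd4, Slc25a17, Pxmp2 and Pxmp4, and every non-control probe carrying one of these gene names on the array was taken. That gave 7 probes, 2 of them for Pxmp4, among 55681 probes on the array, and 6 genes among 22423 named genes. All 6 genes passed the filter on dim probes, Abcd2 through the 3 groups in which it was measured above background.

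Each array was hybridised with Cy3-labelled RNA from the liver of 1 male C57Bl/6J mouse aged 14 weeks, and 34 arrays were analysed. Mice received fenofibrate, a fibrate drug that activates PPARA, at 100 mg/kg/day or the vehicle, gum arabic at 3% in water, by gavage once a day for 10 days and were killed at zeitgeber time 14 h. The vehicle groups held 4 WT, 4 LWT, 4 LKO and 3 KO mice, and the fenofibrate groups held 4 WT, 5 LWT, 5 LKO and 5 KO mice. KO mice carry a knockout of Ppara, LKO mice a knockout of Ppara in liver, WT mice are the control line set against KO, and LWT mice, the liver wild-type line, are the control line set against LKO. All animals ate the same chow and shared a daily light and dark cycle. The promoter that drives the liver deletion and the part of Ppara that is deleted are not given in the sources used here.

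Peroxisomes break down very long-chain, branched and dicarboxylic fatty acids by their own beta-oxidation, and the substrates reach the matrix as acyl-CoA through ABC transporters of the ABCD family, which work as dimers. Smaller solutes cross through the membrane channel PXMP2, and cofactors such as CoA, FAD and NAD are carried by SLC25A17. PPARA is a nuclear receptor for fatty acids that switches on peroxisomal and mitochondrial fatty acid oxidation genes in rodent liver, and fibrates are its drugs.

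The level of a gene is given as the log2 of its scanner signal minus the log2 of the array's 75th percentile, so that 0 is the brightness of the 75th percentile probe, and levels of different probes are not comparable with each other. Between 50.6% and 63.2% of all probes were well above background on an array, no member's spot was saturated, and the number of arrays per group limits the precision. Throughout, above background means flagged by the scanner software as well above it. Below or under background means only that this flag was absent. A change was called when its adjusted p, from limma with Benjamini-Hochberg adjustment over 15349 genes, was under 0.05. All 10 hepatocyte marker genes examined were above background on every array. The brightest Ppara probe read a mean of 7.02 ± 0.20 (SD, n = 4) in WT vehicle livers, 7.03 ± 0.23 (n = 4) in LWT, 6.11 ± 0.09 (n = 4) in LKO and 5.34 ± 0.27 (n = 3) in KO, so the order of the levels followed the labels, although whether this probe lies in the deleted part is not known. The samples are whole liver, so fewer cells of a type and less RNA per cell cannot be told apart.

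**Figure D1:**
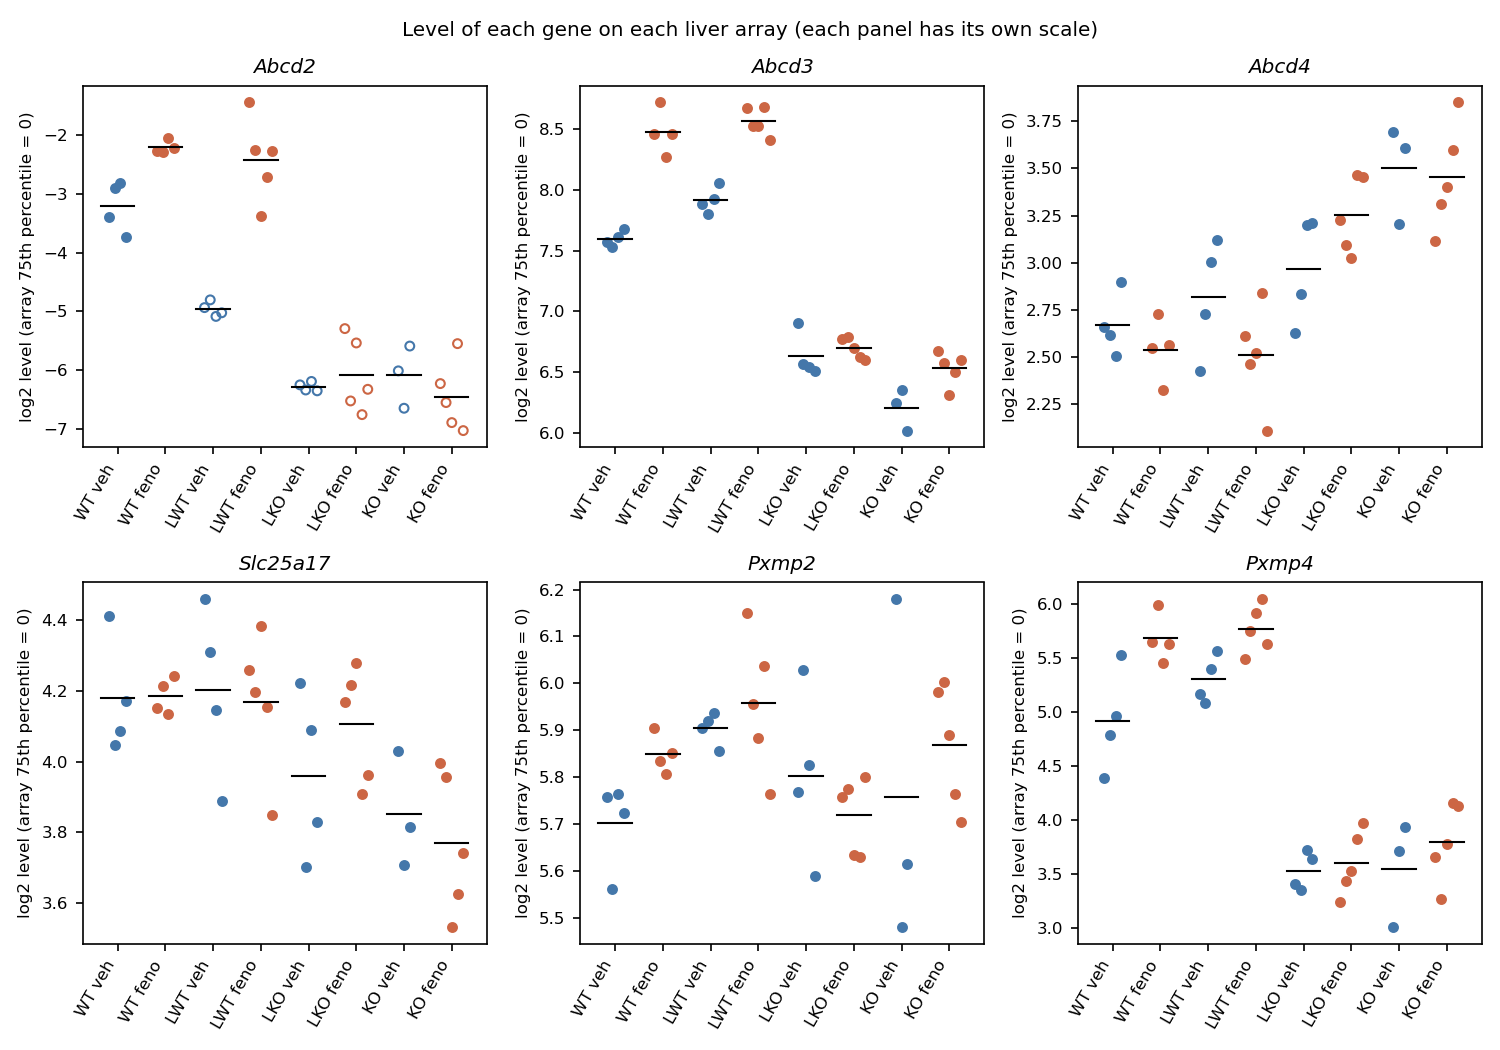
Level of each gene on each array (y axis, log2 relative to the array's 75th percentile) in the 8 groups (x axis; veh is vehicle, feno is fenofibrate), with a line at each group mean. Blue points are vehicle and orange points fenofibrate mice, and open points are spots not well above background. Abcd3 and Pxmp4 are high in the WT and LWT groups and low in LKO and KO, Abcd2 is above background in both WT groups and LWT fenofibrate and below it in the other 5, Abcd4 runs the other way, and Slc25a17 and Pxmp2 span narrow ranges.

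The promoters of the genes are shown as a description. Over the 34 arrays the levels of Abcd3 and Pxmp4 had a correlation (Pearson r) of 0.936. Slc25a17, which lies in the same functional set, had 0.578 with Abcd3 and 0.406 with Pxmp4. Any part of these bases in the levels was not tested. RefSeq promoter sequence of build GRCm38.p6 was given for 3 of the 6 genes, and Abcd2, Abcd4 and Pxmp2 have no entry in the table used. Each run holds the 250 bases before the transcription start on the minus strand: Abcd3 at chr3:121815303-121815552 (the upstream of its 2 entries), Pxmp4 at chr2:154603674-154603923 and Slc25a17 at chr15:81360766-81361015. Capitals mark the first window with the fewest mismatches to 2 copies of AGGTCA in a row with 1 free base between them, the direct repeat that PPARA binds together with its partner RXR, searched on both strands.
Abcd3: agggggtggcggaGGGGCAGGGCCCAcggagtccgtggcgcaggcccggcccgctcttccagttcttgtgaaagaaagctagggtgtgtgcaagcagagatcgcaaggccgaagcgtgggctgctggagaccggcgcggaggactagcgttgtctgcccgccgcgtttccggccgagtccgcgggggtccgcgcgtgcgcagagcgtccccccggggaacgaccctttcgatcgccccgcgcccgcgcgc
Pxmp4: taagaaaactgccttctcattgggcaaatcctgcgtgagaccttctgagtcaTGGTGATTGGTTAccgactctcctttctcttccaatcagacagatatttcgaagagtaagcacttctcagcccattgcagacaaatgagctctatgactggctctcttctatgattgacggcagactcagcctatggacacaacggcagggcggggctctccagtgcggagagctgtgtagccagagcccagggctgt
Slc25a17: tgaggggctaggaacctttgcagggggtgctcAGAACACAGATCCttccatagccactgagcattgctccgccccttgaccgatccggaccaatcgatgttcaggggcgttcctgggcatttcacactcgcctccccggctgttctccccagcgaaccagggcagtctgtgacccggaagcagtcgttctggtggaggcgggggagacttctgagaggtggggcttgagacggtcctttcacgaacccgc
None of the 3 sequences held the full repeat, which 0.0335% of 32851 promoters of the same length held, nor a single AGGTCA, which 14% held. The closest window of Pxmp4 began 198 bases before the start and that of Slc25a17 218 bases before it, each with 4 mismatches, and 74.5% of all promoters had a window at least as close. The closest window of Abcd3, which began 237 bases before the start, had 5 mismatches, and 99.6% of promoters had one as close. The Abcd3 promoter was 72% G and C, against 51.2% for Pxmp4, 61.2% for Slc25a17 and a median of 52.4% over all promoters. These matches describe the letters of these windows only.

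Abcd3, Abcd2 and Pxmp4 were higher after fenofibrate in WT livers, and Abcd3 and Abcd2 were higher in LWT livers too. No member was called for the drug in LKO or in KO livers, where 0% and 0.0326% of all genes tested were. In WT, 3 of the 6 members rose and none fell, where 10.3% of all genes tested rose and 11.4% fell. In LWT, 2 of the 6 rose and none fell, where again 10.3% of all genes rose and 7.88% fell. Of these 2, Abcd2 was above background on 0 of 4 LWT vehicle arrays. It passed the filter on dim probes only through the groups in which it was above background. The median change of the 6 members was 0.46 on the log2 scale in WT and 0.26 in LWT, beside -0.0014 and 0.0064 for all genes. Of the 10 hepatocyte genes, 3 fell with the drug in WT and 2 in LWT, with median differences of -0.21 and -0.20. Their summed level ran from 13.06 to 13.21 in WT vehicle and from 12.95 to 13.17 in WT fenofibrate livers, and from 13.03 to 13.36 and 12.94 to 13.26 in LWT. The part of this in the members' changes was not tested.

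Abcd3, also known as PMP70, imports branched-chain, dicarboxylic and bile acid precursor acyl-CoAs and is among the most abundant proteins of the liver peroxisome. Its probe lies at chr3:121461892-121461951 of mouse build mm9, minus strand. The level read 7.57, 7.53, 7.62 and 7.68 in the WT vehicle livers and 8.46, 8.72, 8.28 and 8.46 in the WT fenofibrate livers. The groups did not overlap, and the change was 0.88 ± 0.10 (SE) on the log2 scale, 1.84-fold, with an adjusted p of 1.11e-07. LWT vehicle livers read 7.88, 7.80, 7.93 and 8.06, and LWT fenofibrate livers 8.68, 8.53, 8.53, 8.68 and 8.41. These groups did not overlap either, with a rise of 0.65 ± 0.09, 1.57-fold, and an adjusted p of 6.81e-06.

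In LKO livers Abcd3 read 6.91, 6.56, 6.54 and 6.51 on vehicle and 6.77, 6.79, 6.70, 6.62 and 6.60 on fenofibrate. The ranges overlapped, and the difference of 0.07 had a 95% confidence interval from -0.12 to 0.26. In KO livers it read 6.25, 6.35 and 6.02 on vehicle and 6.68, 6.57, 6.31, 6.50 and 6.60 on fenofibrate. This difference of 0.33 ± 0.10 was not called (adjusted p = 0.236), with an interval from 0.12 to 0.53 and ranges that overlapped at 1 array of each group. The test of the difference between genotypes was past the threshold in both pairs of genotypes. The drug effect was larger in LWT than in LKO by 0.58 ± 0.13 (adjusted p = 0.00485) and larger in WT than in KO by 0.56 ± 0.14 (adjusted p = 0.0089). Both interactions missed the threshold in the authors' deposited value table, at 0.65 (adjusted p = 0.0589) and 0.63 (adjusted p = 0.0681).

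Abcd2 encodes an importer of very long-chain and polyunsaturated acyl-CoAs. Its probe, at chr15:90976565-90976624 of mm9, minus strand, was the dimmest of the members and was well above background only in WT vehicle, WT fenofibrate and LWT fenofibrate livers. WT vehicle livers read -3.40, -2.90, -2.81 and -3.74, and WT fenofibrate livers -2.27, -2.29, -2.06 and -2.23. The groups did not overlap, and the rise of 1.00 ± 0.33, 2.00-fold, had an adjusted p of 0.0295. Leaving out any 1 of 6 of the 8 mice moved that p above the threshold: it was 0.0754 without WT vehicle replicate 1, 0.104 without replicate 4, and between 0.0504 and 0.0677 without each of the 4 fenofibrate mice, with rises from 0.83 to 1.03. The only slide that held both WT groups gave a difference of 0.56.

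LWT vehicle livers read -4.94, -4.80, -5.08 and -5.02 for Abcd2, below background on all 4 arrays, and LWT fenofibrate livers read -1.45, -2.27, -3.39, -2.72 and -2.28, above background on all 5. Abcd2 was thus at least 3.78-fold higher on fenofibrate in LWT, computed against the lowest signal above background on each vehicle array, with a mean of -2.42 against -4.96 and an adjusted p of 6.7e-07. A higher limit would give a smaller fold, so this and the later folds given as at least a value are bounds under this limit only. With normexp background correction the fitted change was smaller too. In LKO and in KO livers no array on either treatment was above background, so no fold is given. Group means lay between -6.45 and -6.08, and the adjusted p was 0.985 in LKO and 0.72 in KO. The fitted drug effect was larger in LWT than in LKO by 2.35 ± 0.45 (adjusted p = 0.000867), a value that depends on signals under background. Set against KO, the WT effect was larger by 1.37 ± 0.48, which was not called (adjusted p = 0.0629), and was called after quantile normalization (1.44, adjusted p = 0.0355), without KO fenofibrate replicate 4 (1.59, adjusted p = 0.0219) and without KO vehicle replicate 2 (1.65, adjusted p = 0.0334). All 8 KO arrays were under background for Abcd2, so these values and calls rest on such signals too.

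Adipose tissue also makes Abcd2, and genes of the adipocyte list moved with the drug in the same groups. Of its 6 genes, 3 were tested: Cfd rose in WT and in LWT and Adrb3 rose in LWT, while Retn was not called in either. The summed level of the tested genes ran from 0.31 to 0.96 in WT vehicle and 2.39 to 4.08 in WT fenofibrate livers, and from 0.08 to 1.51 in LWT vehicle and 2.15 to 3.18 in LWT fenofibrate livers. In LKO it ran from 1.55 to 1.90 on vehicle and 1.08 to 1.79 on fenofibrate, and in KO from 0.26 to 1.45 and 0.38 to 1.80. Among the defining genes, Lep was above background on 0 of 34 arrays and Adipoq on 7. The Adipoq arrays were 3 of the 4 WT fenofibrate arrays, 2 LWT vehicle, 1 LKO vehicle and 1 KO fenofibrate array, and none of the LWT fenofibrate arrays. Plin1, the other gene of the list that was not tested, was above background on 20 arrays, which included 3 of 4 WT vehicle, 3 of 4 WT fenofibrate, 2 of 4 LWT vehicle and 4 of 5 LWT fenofibrate arrays. The part of fat cells in the Abcd2 result was not tested.

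Pxmp4, also known as PMP24, a peroxisomal membrane protein whose substrate is not established, was measured by 2 probes. The brighter one, at chr2:154412936-154412995 of mm9, minus strand, read 4.38, 4.78, 4.96 and 5.53 in WT vehicle and 5.65, 5.99, 5.45 and 5.63 in WT fenofibrate livers. The ranges overlapped through the highest vehicle mouse, and the rise of 0.77 ± 0.22, 1.70-fold, had an adjusted p of 0.0109. The call was lost without WT vehicle replicate 1 (0.59, adjusted p = 0.0664), in the authors' deposited value table (0.45, adjusted p = 0.115) and for the mean of both probes (0.44, adjusted p = 0.11). The second probe, at chr2:154421204-154421263 and designed on a cDNA sequence, changed by 0.11 ± 0.20 in WT (adjusted p = 0.783 over 31058 probes) and by 0.08 ± 0.19 in LWT (adjusted p = 0.846).

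LWT livers read 5.17, 5.08, 5.40 and 5.56 for Pxmp4 on vehicle and 5.49, 5.75, 5.91, 6.05 and 5.63 on fenofibrate. The ranges overlapped, and the difference of 0.46 ± 0.21 was not called (adjusted p = 0.125), with an interval from 0.04 to 0.88. The drug differences in LKO (0.07) and KO (0.25) had intervals from -0.35 to 0.49 and from -0.21 to 0.70. No test of the difference in drug effect between genotypes was past the threshold for Pxmp4, with adjusted p from 0.311 to 0.977 over the 4 tests.

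Abcd4, Slc25a17 and Pxmp2 did not pass the test for fenofibrate in any genotype. ABCD4 carries the ABC transporter fold of the family but acts in lysosomes, where it takes part in the export of vitamin B12, and its drug differences ran from -0.31 in LWT (interval -0.64 to 0.02) to 0.29 in LKO (interval -0.05 to 0.62). The drug effect on Abcd4 differed between LWT and LKO by -0.60 ± 0.23, which was not called (adjusted p = 0.121) except with array weights (adjusted p = 0.0423). Slc25a17 differences lay between -0.08 and 0.15 over the 4 genotypes, and Pxmp2 differences between -0.08 and 0.15. The 95% intervals of these 8 differences all lay between -0.36 and 0.41, so that for each gene a rise as large as the 0.88 of Abcd3 in WT lay outside the interval.

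In the tests of the difference in drug effect, 2 members, Abcd2 and Abcd3, were larger in LWT than in LKO, where 3.86% of all genes were, and 1, Abcd3, was larger in WT than in KO, where 5.75% were. The Abcd2 call rests on LKO and LWT vehicle signals below background. Across the whole array no gene passed the test for fenofibrate in LKO by limma (0%, with 902 at an unadjusted p under 0.05) and 5 did in KO, 0.0326% of those tested. No gene passed for a difference in drug effect between WT and LWT (657 at an unadjusted p under 0.05) or between LKO and KO (1434). For Abcd2 that first difference was -1.54 ± 0.46 (interval -2.48 to -0.60, adjusted p = 0.977), with the LWT vehicle group below background. It was 0.23 for Abcd3 and 0.30 for Pxmp4, with intervals that included 0.

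**Figure D2:**
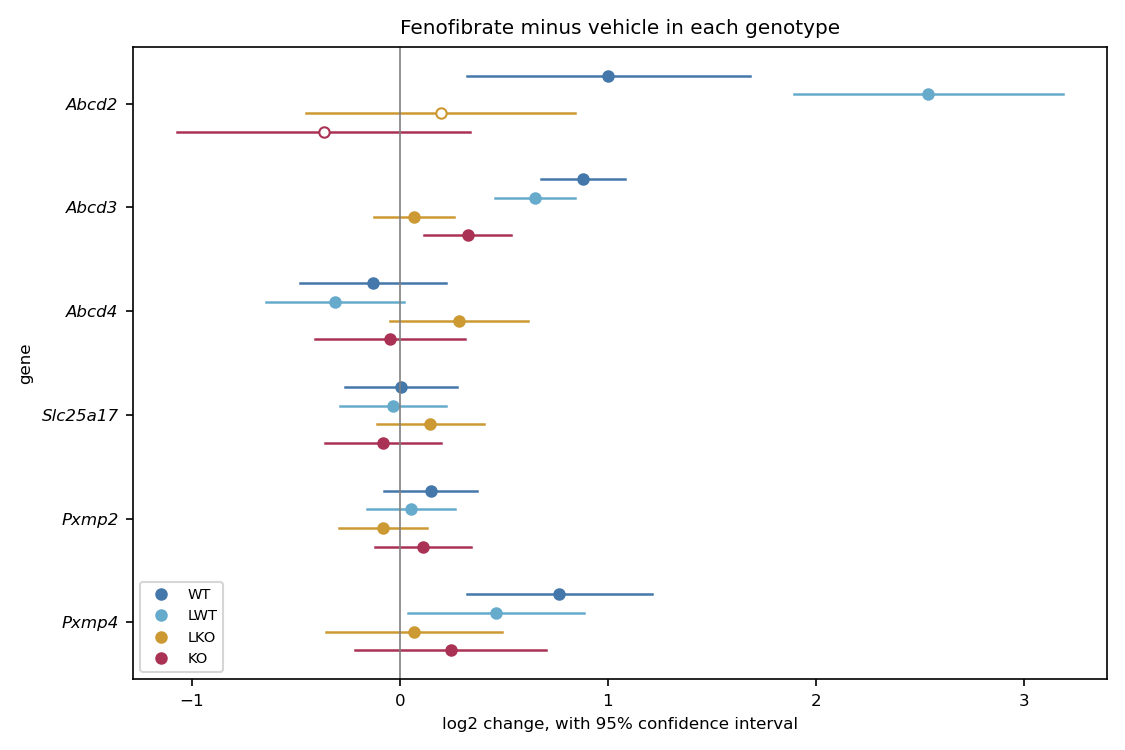
Fenofibrate minus vehicle for each gene in WT, LWT, LKO and KO livers (x axis, log2 change from limma; bars, 95% confidence intervals; 3 to 5 mice per group). Open circles mark Abcd2 in LKO and KO, where no array of either group was above background. The changes of Abcd2, Abcd3 and Pxmp4 in WT and LWT lie to the right of 0, and those of Abcd4, Slc25a17 and Pxmp2 lie within 0.31 of it.

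Abcd3 and Pxmp4 were lower in LKO than in LWT and lower in KO than in WT, on either treatment, and Abcd4 was higher in 3 of these 4 comparisons. On vehicle, 3 of the 6 members were lower in LKO than in LWT and none was higher, where 4.4% of all genes tested were lower. One of those 3 was Abcd2, for which no array of either group was above background. Between KO and WT on vehicle, 3 members were lower, where 16.3% of all genes were, and 1 was higher, where 14.1% were.

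On fenofibrate the shares of all genes were larger. In LKO against LWT, 3 members were lower (18.6% of all genes) and 1 higher (18.3%). In KO against WT, 4 members were lower (22.4% of all genes) and 1 higher (21.4%). The medians of the 6 members were -0.76 and -0.85 for LKO and KO on vehicle and -1.05 and -1.15 on fenofibrate, and the medians of all genes lay between -0.025 and 0.0081. These medians, and the counts of lower members on either treatment, include Abcd2, whose LKO and KO signals all lay below background. For LKO against LWT on vehicle the LWT signals did too, so that median rests partly on values under background.

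Abcd3 was 2.44-fold lower in LKO than in LWT on vehicle (-1.29 ± 0.10, adjusted p = 8.4e-11) and 3.66-fold lower on fenofibrate (-1.87 ± 0.09, adjusted p = 2.25e-16). In KO against WT it was 2.63-fold lower on vehicle (-1.39 ± 0.11, adjusted p = 3.66e-11) and 3.86-fold lower on fenofibrate (-1.95 ± 0.09, adjusted p = 2.53e-16). The lowest WT or LWT liver, at 7.53, lay above the highest LKO or KO liver, at 6.91. Its levels ran, from high to low, LWT fenofibrate, WT fenofibrate, LWT vehicle, WT vehicle, LKO fenofibrate, LKO vehicle, KO fenofibrate and KO vehicle. The first 2 of these groups overlapped in range, as did each neighbouring pair from LKO fenofibrate downward.

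Pxmp4 was 3.42-fold lower in LKO than in LWT on vehicle and 4.49-fold lower on fenofibrate. LKO vehicle livers read 3.41, 3.35, 3.72 and 3.64, and LKO fenofibrate livers 3.24, 3.43, 3.52, 3.82 and 3.97. The differences were -1.77 ± 0.22 (adjusted p = 8.09e-07) and -2.17 ± 0.19 (adjusted p = 3.42e-10), with no overlap with LWT. In KO the levels were 3.01, 3.71 and 3.93 on vehicle and 3.65, 3.27, 3.78, 4.16 and 4.13 on fenofibrate, again under every WT liver, with differences of -1.36 ± 0.23 (adjusted p = 5.91e-05) and -1.88 ± 0.21 (adjusted p = 1.21e-08). The second probe was lower too in all 4 comparisons, with differences from -0.91 to -1.46 on the log2 scale and adjusted p values of at most 0.00471. Both probes were thus lower in the PPARA-deficient livers, and only the brighter one was called for the drug.

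Abcd2 was at least 2.22-fold higher in WT than in KO on vehicle (means -3.21 and -6.08, adjusted p = 5.43e-07) and at least 4.59-fold higher on fenofibrate (means -2.21 and -6.45, adjusted p = 4.31e-12). It was at least 3.61-fold higher in LWT than in LKO on fenofibrate (means -2.42 and -6.08, adjusted p = 4.57e-11). On vehicle the means of LWT and LKO, -4.96 and -6.28, differed in the fit (adjusted p = 0.0118), but all 8 arrays were below background. With normexp background correction, which compresses dim signals, that difference was -0.097 (adjusted p = 0.859), and the other Abcd2 changes named here were smaller: 0.40 for the drug in WT (adjusted p = 0.0473), 0.79 in LWT (adjusted p = 7.82e-05), and -0.45 (adjusted p = 0.0287), -0.89 (adjusted p = 1.75e-06) and -0.91 (adjusted p = 2.4e-06) for KO on vehicle, LKO on fenofibrate and KO on fenofibrate. Except for the drug in WT, each of these fitted values includes a group below background.

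Abcd4 went the other way and was the only member called higher in KO or LKO than in the control line. Its probe lies at chr12:85943772-85943831 of mm9, minus strand. WT vehicle livers read 2.66, 2.62, 2.51 and 2.90 and KO vehicle livers 3.69, 3.21 and 3.61. The groups did not overlap, with a difference of 0.83 ± 0.18, 1.78-fold, and an adjusted p of 0.00101.

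On fenofibrate, Abcd4 read 2.55, 2.73, 2.32 and 2.56 in WT and 3.11, 3.31, 3.40, 3.60 and 3.85 in KO, a difference of 0.91 ± 0.16 (adjusted p = 3.4e-05) with no overlap. LWT fenofibrate livers read 2.61, 2.46, 2.52, 2.84 and 2.11 and LKO fenofibrate livers 3.23, 3.10, 3.03, 3.46 and 3.46, which did not overlap either (0.74 ± 0.15, adjusted p = 0.000273). On vehicle the LWT livers (2.43, 2.73, 3.01 and 3.12) and the LKO livers (2.63, 2.83, 3.20 and 3.21) overlapped, and the difference of 0.15 had an interval from -0.20 to 0.50. In order of mean level the 4 KO and LKO groups came first, and every neighbouring pair in that order overlapped in range.

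Markers of blood cells and of other liver cells moved in some of the comparisons in which Abcd4 differed. For KO against WT, 14.1% of all genes were higher and 16.3% lower on vehicle, and 21.4% and 22.4% on fenofibrate. For LKO against LWT on fenofibrate, 18.3% were higher and 18.6% lower. In KO against WT on vehicle, 3 of 6 tested lymphocyte and neutrophil genes were higher and 1 lower, 2 of 7 Kupffer cell genes were higher, and 2 of 6 endothelial genes were higher and 2 lower. There 3 of 10 hepatocyte genes were higher, and 1 of 6 cholangiocyte and 1 of 7 stellate genes were lower. The summed lymphocyte and neutrophil level ran from 3.16 to 4.64 in KO vehicle against 3.04 to 3.12 in WT vehicle livers, and the Kupffer level from 6.37 to 8.64 against 6.13 to 6.74. In KO against WT on fenofibrate, 4 of 6 cholangiocyte genes were lower (median -1.33) and 4 of 10 hepatocyte genes were higher. In that comparison 2 stellate genes were lower, 2 blood cell genes were higher and 2 lower, and 1 Kupffer and 1 endothelial gene were higher. The summed cholangiocyte level ran from 0.83 to 2.34 in KO fenofibrate and from 1.35 to 2.63 in WT fenofibrate livers. In LKO against LWT on fenofibrate none of the Kupffer genes was called, 1 blood cell, 1 stellate and 1 endothelial gene were lower and 1 hepatocyte gene was higher, with summed blood cell levels of 2.87 to 3.15 against 2.84 to 3.91. The part of these cells in the Abcd4 results was not tested.

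Slc25a17 was lower in KO than in WT on fenofibrate but was not called in LKO. Its probe lies at chr15:81149365-81149424 of mm9, minus strand. WT fenofibrate livers read 4.15, 4.22, 4.13 and 4.24 and KO fenofibrate livers 4.00, 3.96, 3.53, 3.63 and 3.74. The groups did not overlap, with a fall of 0.41 on the log2 scale (SE 0.13, 1.33-fold, adjusted p = 0.0083).

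On vehicle, Slc25a17 read 4.41, 4.05, 4.09 and 4.17 in WT and 4.03, 3.71 and 3.82 in KO, a difference of -0.33 ± 0.14 that was not called (adjusted p = 0.0823). It passed with the replicate number as a block (-0.37, adjusted p = 0.0213), with the slide as a block (-0.44, adjusted p = 0.0108) and without KO vehicle replicate 1 (-0.42, adjusted p = 0.0462). LKO differed from LWT by -0.24 on vehicle (interval -0.51 to 0.03) and by -0.06 on fenofibrate (interval -0.30 to 0.18). Whether the KO and LKO differences themselves differ was not tested.

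Pxmp2, the most abundant channel-forming protein of the peroxisomal membrane in mammals, was the steadiest member. Its 60-base probe spans an exon junction at chr5:110703618-110706703 of mm9, minus strand. Over all 34 livers its level lay between 5.48 and 6.18, and no comparison was called. The closest to the threshold was LKO against LWT on fenofibrate, where LWT read 6.15, 5.96, 5.88, 6.04 and 5.76 and LKO 5.76, 5.78, 5.63, 5.63 and 5.80. The ranges overlapped at 1 LWT liver, and the difference of -0.24 ± 0.10 had an adjusted p of 0.0547. It passed with the slide as a block (-0.25, adjusted p = 0.017), with normexp (-0.23, adjusted p = 0.0446), with array weights (-0.25, adjusted p = 0.00743), with only these 2 groups in the fit (-0.24, adjusted p = 0.0377) and without LWT fenofibrate replicate 5 (-0.29, adjusted p = 0.0274).

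**Figure D3:**
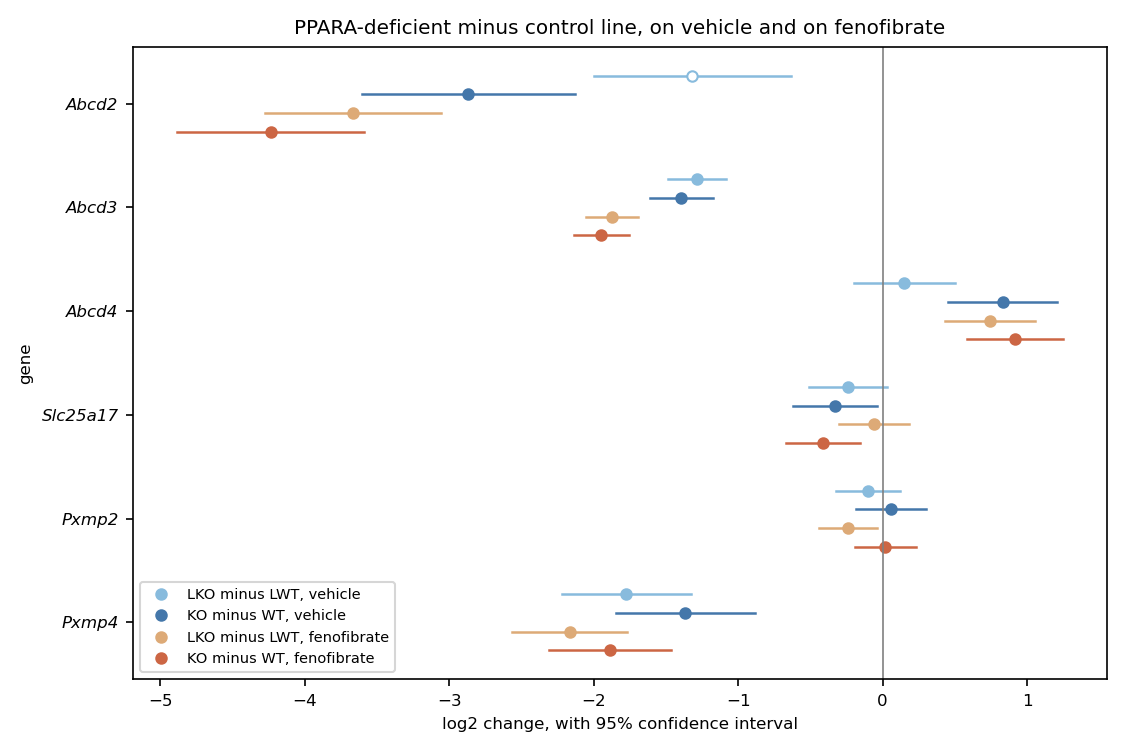
LKO minus LWT and KO minus WT on vehicle and on fenofibrate for each gene (x axis, log2 change from limma; bars, 95% confidence intervals; 3 to 5 mice per group). The open circle marks Abcd2 in LKO minus LWT on vehicle, where no array was above background. Abcd3 and Pxmp4 lie at -1.29 or lower in all 4 comparisons, Abcd4 lies between 0.15 and 0.91, and Slc25a17 and Pxmp2 lie within 0.41 of 0.

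Within single slides that held both groups of a comparison, Abcd3 differed by 0.84 for the drug in WT and by 0.72 and 0.75 in LWT. Its drug differences were 0.43, 0.48 and 0.23 in KO and -0.17, 0.05 and 0.28 in LKO. For LKO against LWT it differed by -0.98 to -1.42 on vehicle and by -1.85 to -2.08 on fenofibrate. Pxmp4 differed by 0.68 for the drug in WT and by 0.53 and 0.65 in LWT. Its drug differences were 0.64, 0.22 and -0.013 in KO and -0.025, 0.44 and -0.21 in LKO. For LKO against LWT it differed by -1.68 to -1.86 on vehicle and by -1.87 to -2.32 on fenofibrate. Abcd4 was higher by 1.03 in KO on the 1 slide shared with WT on vehicle, and by 0.56, 0.62 and 1.18 in LKO on the 3 slides shared with LWT on fenofibrate.

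The control lines WT and LWT differed in Abcd2 on vehicle, and no other member was called. Abcd2 was at least 2.18-fold higher in WT (mean -3.21, above background on 4 of 4 arrays) than in LWT (mean -4.96, 0 of 4), with a fitted difference of -1.75 ± 0.33 for LWT minus WT, which uses the LWT signals under background, and an adjusted p of 0.00495. That is 1 of 6 members lower in LWT, where 0.456% of all genes were. Abcd2 passed the filter on dim probes only through the WT groups and LWT fenofibrate, in which it was above background. The count is therefore a description and no test of the members as a set. The call was lost with normexp background correction (-0.42, adjusted p = 0.178). On the 2 slides that carried both lines on vehicle the differences, not tested and again with LWT under background, were -1.59 and -2.27. On fenofibrate the lines differed by -0.21 (interval -0.86 to 0.44, adjusted p = 0.897), and no member was called, where 0.534% of all genes were.

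Abcd2 lies on chromosome 15, the chromosome of Ppara, with its probe 5.34 Mb from the Ppara probe, and Slc25a17 lies 4.48 Mb away on the other side. Of 274 tested genes within 10 Mb of Ppara, 15 differed between LWT and WT on vehicle (5.47%), against 23 of 347 on the rest of chromosome 15 (6.63%) and 107 of 14692 on other chromosomes (0.728%). On fenofibrate the counts were 14 (5.11%), 23 (6.63%) and 44 (0.299%). Cdpf1, whose probe is the nearest called one to that of Ppara, was lower in LWT on vehicle (-1.76, adjusted p = 1.29e-07) and again on fenofibrate (-1.87). The 15 genes called on vehicle include Abcd2 itself. On the Abcd2 side of Ppara, Cdpf1 was the only other one, 0.0053 Mb from the Ppara probe, and the rest lay on the other side. The 4 tested genes nearest to Abcd2 were not called on vehicle: Cpne8 differed by 0.64 (adjusted p = 0.484), Kif21a by -0.035, Slc2a13 by 0.036 and Lrrk2 by 0.15. Slc25a17 differed between the lines by 0.02 on vehicle (interval -0.25 to 0.29) and by -0.02 on fenofibrate.

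**Figure D4:**
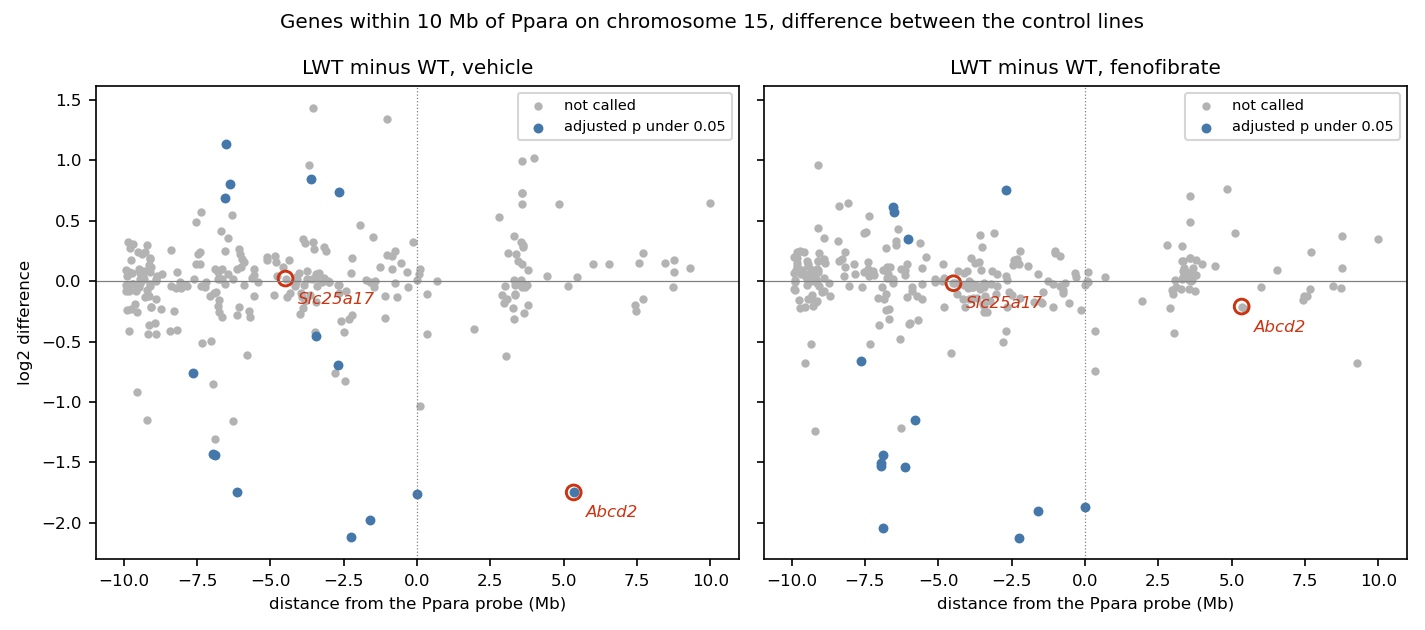
LWT minus WT on vehicle (left) and on fenofibrate (right) for the 274 tested genes within 10 Mb of Ppara (x axis, distance of each gene's probe from the Ppara probe in Mb; y axis, log2 difference from limma). Filled blue points passed the test, and rings mark Abcd2 and Slc25a17. Abcd2 lies at -1.75 on vehicle and at -0.21 on fenofibrate, and Slc25a17 lies near 0 in both.

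Abcd3 showed a smaller line difference in the opposite direction that was not called. LWT vehicle livers lay 0.32 ± 0.10 above WT vehicle livers (interval 0.12 to 0.52, adjusted p = 0.119), and the ranges did not overlap, but the difference passed only with array weights (0.33, adjusted p = 0.0178). On fenofibrate it was 0.09 (interval -0.10 to 0.28). Pxmp4 differed by 0.39 on vehicle (interval -0.06 to 0.83) and Pxmp2 by 0.20 (interval -0.02 to 0.43).

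The other peroxisomal genes give the setting for these values. Their counts stand beside the shares of all genes given above for the same comparisons, 10.3% higher with the drug in WT and in LWT, 11.4% and 7.88% lower, and on vehicle 4.4% lower in LKO and 16.3% lower in KO. With the drug, 0% of all genes were called in LKO and 0.0326% in KO. Of 13 peroxisomal beta-oxidation genes, 9 rose with fenofibrate in WT and 8 in LWT, none fell, and none was called in LKO or KO. Ehhadh, the bifunctional enzyme, rose by 3.59 in WT and 3.05 in LWT, Acaa1b, a thiolase, by 1.96 and 1.54, and Ech1, a dienoyl-CoA isomerase, by 1.16 and 1.17. The rise of Abcd3 in WT, 0.88, was close in size to the median of this list, 0.83. In LKO against LWT on vehicle 8 of the 13 were lower, and in KO against WT 8 were lower and 1 higher.

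Among 17 genes for the entry and exit of acyl groups, 12 rose in WT and none fell, and 9 rose and 1 fell in LWT. The acyl-CoA thioesterases Acot5, Acot3 and Acot6 rose by 3.97, 3.27 and 2.67 in WT, and Crat, which makes acylcarnitines, by 2.14. Among 19 peroxins and division factors, 10 rose in WT and 7 in LWT. In WT, Pex11a, which promotes peroxisome division, rose by 1.70, the docking factor Pex14 by 0.96 and the membrane protein receptor Pex19 by 0.87. Of 16 tested among 18 other peroxisomal enzymes, 8 rose and 1 fell in WT, and 8 rose and 2 fell in LWT; the one that fell in WT, chosen after its values were seen, was Pipox (-0.55, adjusted p = 0.00126). Lonp2, a matrix protease, rose by 1.09, Idi1 of isoprenoid synthesis by 1.00, Hacl1 of alpha-oxidation by 0.70 and Mlycd, malonyl-CoA decarboxylase, by 0.69.

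Among 8 further membrane proteins, the class most like the members, 2 rose in WT and 3 in LWT. Slc25a42, a mitochondrial CoA carrier of the same family as Slc25a17, rose by 1.02 in WT and 0.62 in LWT and was lower by 0.79 in LKO than in LWT on vehicle. Tmem135, a peroxisome-associated membrane protein, rose by 0.61 and 0.65. None of these genes was called for the drug in LKO or KO.

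Over the 34 arrays, which share the groups, slides and scaling, Abcd3 and Pxmp4 had a Pearson r of 0.936, Abcd2 and Abcd3 0.891, and Abcd4 and Abcd3 -0.791. The 3 tested genes most like Abcd3 were Hadhb (r = 0.985), Abhd6 (0.985) and Acaa1b (0.985). For Pxmp4 they were Hsdl2 (0.979), Eci3 (0.976) and Tmed5 (0.974), and for Abcd2 Hacd1 (0.933), Atp5mpl (0.928) and Mpp1 (0.927). Abcd4 was most like Serinc3 (0.862), Sult1d1 (0.859) and Rnf146 (0.857). Slc25a17 was most like Ola1 (0.85), Idnk (0.843) and Ier3ip1 (0.83), and Pxmp2 most like Fbxo36 (0.831), Dap3 (0.815) and Dcxr (0.812). These values describe likeness of level across arrays only.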

How the data were processed

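The files are scanner outputs of 34 one-color Agilent arrays, 1 per mouse, read with version 10.10.1.1 of Agilent's Feature Extraction, as the headers state. Deposited intensity values (gProcessedSignal) are background-subtracted signals, per the file headers, and were taken as log2 minus each array's 75th percentile. Probe coordinates are those of mouse build mm9 in the file headers. The authors' deposited value table holds log2 values on the scale its numbers show, with every column median at 7.63 and no gene centring found; beyond limma, named in the submitters' processing notes, no source used here gives its normalization. It served as an alternative and lacks Abcd2.

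Control spots and flagged outliers were left out. A probe was kept if some group had it well above background on all of that group's arrays (31058 probes, of which 20757 had a gene name), and the brightest probe stood for its gene (15349 genes). RefSeq names were matched by accession or symbol. One limma 3.58.1 model (R 4.3.3) with 8 group means gave 10 comparisons and 4 interaction tests, with Benjamini-Hochberg adjustment. On simulated data for drug_WT, over 15349 genes, it recovered 85% of changes of 1 and 100% of changes of 2 on the log2 scale among 200 changed genes. The simulated noise was normal and independent for each gene and array, with no slide effect, so these shares hold for that setting only. Likeness is Pearson's r of a member with each tested gene, and pathway genes are named as the up to 4 called members with the largest change in WT, of which some are not reported here. The members, lists and tests were chosen with earlier results of these data known.

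Replicate numbers were checked for pairing by the correlation of deviations from group means. Every pair exceeded 0.1 in the 3 vehicle comparisons (0.102 to 0.402) and not in the others. Same-numbered mice often share 1 of 5 slides, so number and slide are partly mixed, and the part of each was not tested. In KO against WT on vehicle only the mice numbered 1 shared a slide. Alternatives tried were normexp, quantile and median scaling, the authors' table, 2 other filters, 2 other probe rules, slide and replicate blocks, array weights, fitting only the groups compared and leaving out each array.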

Additional observations from a re-analysis of the deposited data

Results flagged for a closer look

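Abcd3 in LKO vehicle replicate 1 read 6.91, apart from the 3 other mice of its group at 6.51 to 6.56. It was the only such value among 49 groups of a probe examined, where chance marks about 1 group in 20. Without that mouse the LKO group on vehicle lies further below LWT, since 6.91 is its highest level.

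The drug effect differed between genotypes by the interaction test for 2 genes. For Abcd2 it was larger in LWT than in LKO by 2.35 on the log2 scale, a value that rests on the signals of LKO arrays and LWT vehicle arrays below background. For Abcd3 it was larger in LWT than in LKO by 0.58 and larger in WT than in KO by 0.56.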

How the results depend on the processing

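Of 828 recomputed values for single genes over the alternatives that keep all arrays, 790 kept their direction and their side of the threshold, 6 lost a call, 10 gained one and 22 changed sign; the gains and losses stand beside their results, except 1 gain of Pxmp2 with the replicate block, given further on. Of 715 with 1 array left out, 677 kept both, 7 lost a call, 4 gained one and 27 changed sign. Every value that changed sign was uncalled. For Slc25a17 the drug difference in WT was -0.0305 with quantile, -0.0159 with median scaling and -0.00676 in the authors' deposited value table; in LWT it was 0.00867 with median scaling, 0.00824 with the replicate block and 0.0079 with array weights; in KO it was 0.00244 with the replicate block. Its line difference on vehicle was -0.00312 with normexp and -0.00162 with quantile scaling, and on fenofibrate 0.0388 with median scaling and 0.0246 with the replicate block. Slc25a17 in LKO against LWT on fenofibrate was 0.0271 with quantile scaling and 0.0699 in the authors' deposited value table. Pxmp4 in LKO changed by -0.0415 with the drug for the mean of both probes. Abcd4 in KO changed by 0.0127 in the authors' deposited value table and 0.0842 with array weights, and its line difference on fenofibrate was 0.0251 with median scaling, 0.0335 with the slide block and 0.00308 with array weights. Pxmp2 in KO against WT was -0.0456 on vehicle with array weights and on fenofibrate -0.0119 with median scaling and -0.0172 with array weights. The cause of these sign changes was not tested. With 1 array left out, the drug difference of Slc25a17 ran from -0.038 to 0.0832 in WT, from -0.137 to 0.0533 in LWT and from -0.153 to 0.00917 in KO, that of Pxmp4 from -0.025 to 0.157 in LKO and from -0.0252 to 0.436 in KO, that of Abcd4 in KO from -0.195 to 0.0469 and that of Pxmp2 in KO from -0.0294 to 0.321. Pxmp2 in KO against WT ran from -0.154 to 0.196 on vehicle and from -0.0149 to 0.0600 on fenofibrate. The line difference of Slc25a17 ran from -0.064 to 0.126 on vehicle and from -0.0705 to 0.0634 on fenofibrate, and on fenofibrate that of Abcd2 from -0.452 to 0.0318 and that of Abcd4 from -0.113 to 0.0696. The LKO minus KO difference in the drug effect on Pxmp4 ran from -0.368 to 0.0936. The count of members called for the drug in WT, 3, was 1 in the authors' deposited value table and 1 to 3 with 1 array left out (1 without WT vehicle replicate 1), and that in LWT, 2, was 1 in that table and 1 with only probes above background on every array, both of which lack Abcd2. The line count on vehicle, 1, was 0 in those same settings and with normexp, and 2 with array weights. The count for LWT minus LKO, 2, was 0 in the table and 1 with the stricter filter, and that for WT minus KO, 1, was 0 in the table, 2 with quantile scaling and 1 to 2 with 1 array left out. With the replicate number as a block over all arrays, Slc25a17 in KO against WT on vehicle was called. In that comparison all 3 same-numbered pairs had correlations over 0.1. Pxmp2 in LKO against LWT on fenofibrate was called too (-0.24, adjusted p = 0.0426), where 3 of 5 pairs had such correlations. No other call for a member changed. These correlations do not settle whether the mice were paired. Over all genes, array weights raised the count for LKO against LWT on vehicle from 965 to 1786, for the line difference from 146 to 735 on vehicle and from 82 to 548 on fenofibrate, for LWT minus LKO from 1059 to 2075 and for the drug in LKO from 0 to 15. Fitting only the groups compared lowered KO against WT on vehicle from 4670 to 1978, WT minus KO from 1713 to 1018 and the line count on vehicle to 49. That line count was 93 with median scaling and 83 in the authors' deposited value table, and on fenofibrate it was 144 with the slide block. Testing every probe by itself adds features and gave 5081 for the drug in WT (main count 3332), 4255 in LWT (2795), 7785 for KO against WT on vehicle, 9351 for LKO against LWT (5672) and 11855 for KO against WT (6725) on fenofibrate. The drug count in KO, 5, ran from 0 to 22 over the settings and from 0 to 102 with 1 array left out (102 without KO vehicle replicate 3). With 1 array left out the line counts ran from 59 (without LWT vehicle replicate 3) to 224 (without WT vehicle replicate 4) on vehicle and from 46 (without WT fenofibrate replicate 3) to 130 (without LWT fenofibrate replicate 3) on fenofibrate. The count of 0 for WT minus LWT reached 6 with array weights and 2 without LWT fenofibrate replicate 3, and that for LKO minus KO reached 3 with median scaling and 13 without LKO fenofibrate replicate 4. Signal over background limits Abcd2, whose folds against groups below background are bounds against the lowest signal above background or are not given. Its fitted differences from those groups rest on signals under background.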
